A study of Mus musculus with 12 samples.

Results

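The SLC25 proteins are, with few exceptions, carriers of the inner mitochondrial membrane. Their transcripts were compared here between wild-type muscle and muscle from mice without PTRF (gene symbol Cavin1). A carrier was included when its gene symbol began with Slc25a and its mean over 3 wild-type and 3 knockout libraries was at least 1 TPM. TPM is a relative transcript abundance corrected for transcript length and library size. Of the 21936 genes in the files, 47 carried such a symbol and 38 met the minimum.

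Each SLC25 carrier moves a narrow set of solutes between the cytosol and the mitochondrial matrix, usually in exchange for a second solute. Muscle mitochondria rely on them to export ATP, to import ADP and phosphate, to bring in fatty acyl groups as acylcarnitines, and to pass reducing equivalents inward through the malate-aspartate shuttle. Other members supply cofactors, nucleotides, glutathione or iron to the matrix, and for some the solute is still debated.

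All mice were C57BL/6N and 3 months old. The wild-type group (WT) had muscles labelled normal. The knockout group lacked PTRF, a protein that coats caveolae, and its muscles were labelled as dystrophic. Whether the deletion was limited to a tissue was not stated in the labels, nor whether replicates came from separate animals, so p-values measure the spread between samples. RNA was isolated from whole muscle with TRIzol, and polyA RNA was sequenced after library construction with the NEBNext Ultra kit. Labels named soleus and quadriceps, with 3 wild-type and 3 knockout samples each, 12 in all. The quadriceps values repeated the soleus values of the same genotype and number exactly, with a largest difference of 0 TPM. So 6 distinct libraries were analysed, and the labels do not settle which muscle they came from. Levels of the myosin heavy chain genes are given with the fibre markers.

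Several features of the libraries touched every comparison of carriers. The targeted gene Cavin1 stood at 45.2, 40.0 and 42.2 TPM in wild type and at 0.284, 0.0905 and 0.0254 TPM in knockout. Read depth was unknown because no read counts were given, only values taken as TPM. Transcripts of the mitochondrial genome made up 52.3%, 51.1% and 43.0% of the wild-type libraries and 39.0%, 45.7% and 42.2% of the knockout libraries, and a share of that size moves the TPM of all nuclear genes. The median log2 fold change of all 11056 tested genes was 0.33 on the deposited scale. After a trimmed-mean rescaling, which sets libraries to a common centre, the median of 10983 tested genes was -0.04, so both scales are given. Fold changes are knockout minus wild type after adding 1 TPM and taking log2, so those of weakly expressed genes come out too small, and a gene was called when its limma adjusted p was under 0.05. The replicates spread little for most carriers: the median coefficient of variation over the 38 members was 13.6% in wild type and 12.4% in knockout. Single libraries nevertheless led the spread, since wild-type library 3 was the highest of its group for 24 of 38 carriers and knockout library 1 for 21. Both had the lowest mitochondrial share of their group. They also had the highest factor by which rescaling divided the values, 0.951 and 1.27. The same count was not made over all genes, so it is not shown to be particular to carriers.

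The carrier fold is built from 3 repeats, and each repeat classically holds a signature of proline, any residue, an acidic residue, any pair of residues, and a basic residue. A search of the GENCODE M21 coding sequences (GRCm38) found 3 strict matches in 22 of the 38 members, 2 in 8, 1 in 5 and none in Slc25a46, Slc25a51 and Slc25a53. Coding sequences ran from 274 to 677 residues, with a median of 317. The first matching stretch of codons is shown for the carriers that the results turn on, as a classical feature of the family. Capitals mark the codons of the proline, the acidic and the basic residue.
Slc25a4: CCGatcGAGagggtcAAA
Slc25a5: CCCatcGAGagggtcAAG
Slc25a3: CCCctgGACttagtaAAG
Slc25a24: CCTttgGATcgcctcAAG
Slc25a25: CCCctgGACagactgAAG
Slc25a20: CCCctgGACacggtcAAG
Slc25a22: CCCatcGACctggctAAG
Slc25a1: CCGaccGAAtacgtgAAG
Slc25a17: CCCttgGATactgctAGA
Slc25a28: CCGatcGACtgcgtcAAG
Slc25a34: CCCctgGAAgtggtaAAG
The acidic codon was GAG in the adenine nucleotide carriers Slc25a4 and Slc25a5. It was GAA in Slc25a34 and Slc25a1 and an aspartate codon, GAC or GAT, in the other carriers shown.

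Expression of the family was dominated by a few carriers of energy metabolism. Summed over the 38 members, the level was 3450, 3636 and 4555 TPM in wild type and 2792, 2960 and 2847 TPM in knockout. Each knockout library lay under every wild-type library. Slc25a4 and Slc25a3 alone held 78.5%, 79.7% and 81.4% of that sum in wild type and 74.8%, 78.5% and 78.2% in knockout, shares that overlapped. The 21 members with a mean under 10 TPM held 2.25%, 2.03% and 1.92% in wild type and 3.75%, 2.87% and 3.48% in knockout, without overlap. Fewer cells of a type and less RNA per cell cannot be told apart in these bulk samples.

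On the deposited scale 8 carriers rose, 5 fell and 25 were not called. Among all tested genes 36.3% were called higher and 2.92% lower, 39.2% in all. The carriers that rose were Slc25a24, Slc25a25, Slc25a1, Slc25a10, Slc25a38, Slc25a28, Slc25a30 and Slc25a45, and those that fell were Slc25a3, Slc25a20, Slc25a22, Slc25a17 and Slc25a34. The median log2 fold change of the 38 carriers was 0.04, against the median of 0.33 over all tested genes. After rescaling, 2 carriers were called higher and 18 lower, where the shares of all tested genes were 13.4% and 15.4% (28.8% in all), and the median of the carriers was -0.32. All 5 carriers that fell were called lower on both scales. Of the 8 that rose, Slc25a24 and Slc25a45 were called higher on both, and no carrier was called in opposite directions. Slc25a45 could be tested only through its knockout values of 1.64, 1.43 and 1.66 TPM. Its wild-type values were 0.693, 0.479 and 0.890 TPM, so its call depends on how carriers were selected. Slc25a13, with higher values in wild type, was left out at a mean of 0.769 TPM. The count of 8 rested in part on single libraries: it was 5 without wild-type library 1 or 2, 3 without knockout library 1 and 4 without knockout library 3, while the 5 decreases were called in each of these fits.

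**Figure D1:**
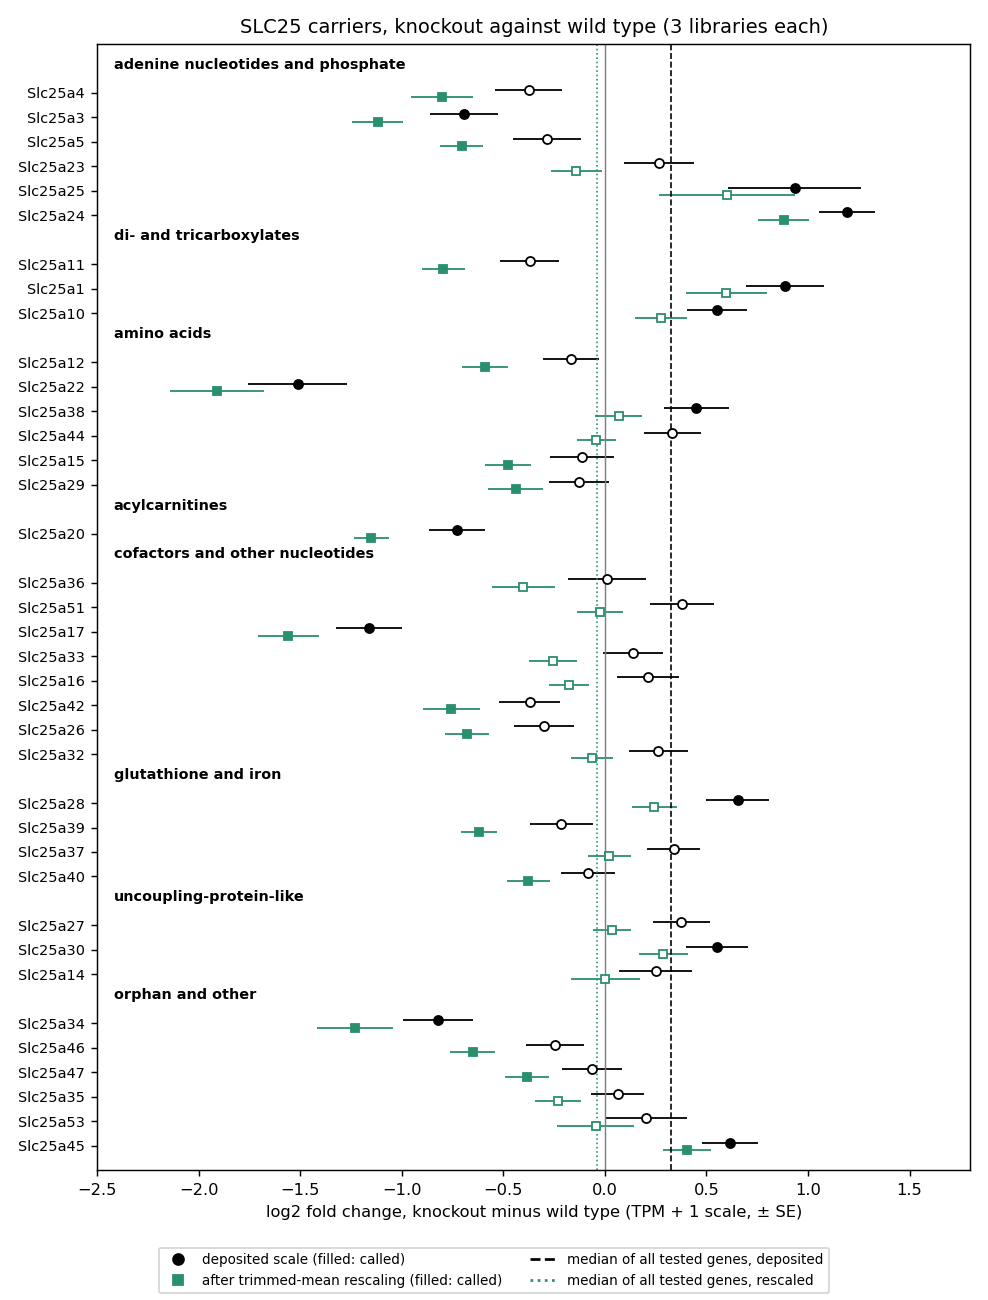
Log2 fold change (knockout minus wild type, TPM + 1 scale, bars ± SE) of each carrier reported here, grouped by transported solute, on the deposited scale (circles) and after trimmed-mean rescaling (squares), with filled marks for called genes. Rescaling moved all carriers shown to the left; the vertical lines mark the medians of all tested genes, 0.33 deposited and -0.04 rescaled.

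The groups of 3 libraries did not overlap for 12 carriers with knockout above and 10 with knockout below wild type, and overlapped for 16. Over all tested genes 48.7% lay apart with knockout above and 4.83% with knockout below, 53.6% in all. After rescaling the counts of carriers were 4 above and 20 below, beside 19.4% and 24.9% of all tested genes (44.4% in all).

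On the deposited scale the direction of the calls varied with level, among the carriers and among all tested genes. Of the 17 carriers with a mean of 10 TPM or more, 5 fell and 1 rose, Slc25a28. Of the 21 carriers under 10 TPM, none fell and 7 rose, counting Slc25a45, which could be tested only through its knockout values. All tested genes at 10 TPM or more were called higher in 30.1% and lower in 4.36%, and those under 10 TPM in 41.0% and 1.85%. The counts of the low carriers thus lay near the shares of all genes of their level. Only the abundant carriers departed from theirs, with fewer increases and more decreases. After rescaling the abundant carriers gave 0 higher and 12 lower, where all genes of that level gave 10.1% and 24.9%, and the low carriers gave 2 higher and 6 lower, where all genes of that level gave 16.0% and 8.23%.

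**Figure D2:**
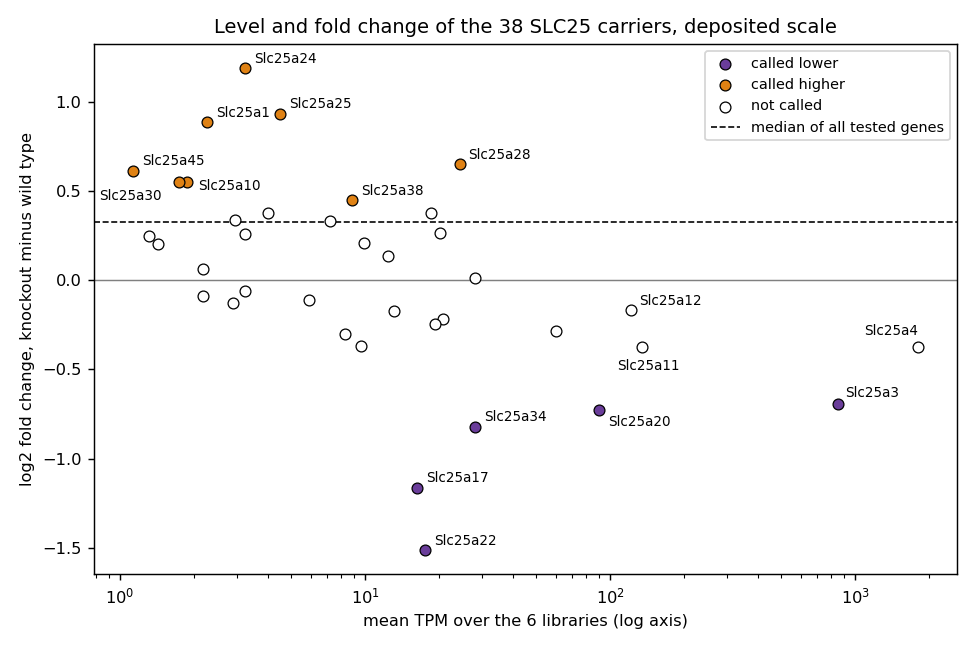
Mean TPM of each carrier over the 6 libraries (log axis) against its log2 fold change on the deposited scale, with called carriers coloured and labelled by symbol. The 5 carriers that fell had means above 10 TPM and 7 of the 8 that rose had means under 10 TPM. Carriers with a mean under 1 TPM, among them Slc25a13, are not in these counts. The dashed line marks the median of all tested genes, 0.33.

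Slc25a3, the phosphate carrier that feeds ATP synthase, fell to 61.1% of its wild-type level. Its level was 922, 956 and 1296 TPM in wild type (1058 ± 207, SD, n = 3) and 656, 663 and 620.5 TPM in knockout (646 ± 22.5). All knockout values lay under all wild-type values. The log2 fold change was -0.69 (SE 0.17, adjusted p 0.00781), and -1.12 after rescaling (adjusted p 0.000682; 0.000682 to 0.0439 over 16 alternatives). Its gene lies on chromosome 10, 91116574 to 91124059, on the minus strand.

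Slc25a4, the main ADP/ATP exchanger of heart and skeletal muscle, was the most abundant carrier. Its values were 1785, 1943.5 and 2413 TPM in wild type and 1434, 1662 and 1607 TPM in knockout, and the groups did not overlap. With a log2 fold change of -0.38 (SE 0.17, adjusted p 0.0893) it was not called on the deposited scale. It was called lower after rescaling, at -0.80 (adjusted p 0.00577; 0.00577 to 0.359 over 16 alternatives). Slc25a5, the ADP/ATP exchanger of many other tissues, stood at 60.3, 56.7 and 82.8 TPM in wild type and 57.8, 52.3 and 51.3 TPM in knockout. Its groups overlapped and its log2 fold change of -0.29 was not called (adjusted p 0.181). Reads of Slc25a5 are uncertain, because 67.1% of its 31-base windows also occur in 13 other annotated genes, most of them in the gene model Gm5560. For Slc25a4 that share was 0%. Slc25a5 made up 3.27%, 2.83% and 3.32% of the summed level of both exchangers in wild type and 3.87%, 3.05% and 3.09% in knockout, so the balance between them overlapped.

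The calcium-regulated ATP-Mg/phosphate carriers, which adjust the adenine nucleotide content of the matrix, are Slc25a23, Slc25a24 and Slc25a25. Slc25a24 rose from 1.89, 1.39 and 1.45 TPM (1.58 ± 0.271, n = 3) to 4.97, 4.54 and 5.09 TPM (4.87 ± 0.290), which was 309% of wild type. The 3 knockout values were all above the wild-type values. Its log2 fold change of 1.19 (SE 0.14, adjusted p 8.03e-05) was the largest increase among the 38. It was 0.88 after rescaling (adjusted p 0.00174; 4.08e-05 to 0.00312 over 15 alternatives). Slc25a24 was also called higher in each of the 15 alternatives in which it was tested, a result that held for none of the other carriers that rose.

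Slc25a25 was the least even carrier in knockout, with a coefficient of variation of 56.6%. Wild-type levels were 1.86, 2.52 and 3.27 TPM, and knockout levels were 7.14, 2.47 and 9.63 TPM. Knockout libraries 1 and 3 were high, while knockout library 2 lay inside the wild-type range. The call (log2 fold change 0.93, SE 0.33, adjusted p 0.0415) was lost after rescaling (0.60, adjusted p 0.221; 0.000119 to 0.318 over 15 alternatives). Without knockout library 3 the log2 fold change was 0.60 (adjusted p 0.125), without knockout library 1 it was 0.79 (adjusted p 0.141), and leaving out wild-type library 1, 2 or 3 gave adjusted p-values of 0.0935, 0.0805 and 0.0585. Of 8 adipocyte markers, 5 (Adipoq, Plin1, Cidec, Retn and Cfd) also had their lowest knockout value in library 2, with Cfd at 69.6, 17.2 and 79.0 TPM. Cidea was lowest in knockout library 3 and Lep in knockout library 1, the brown-fat marker Ucp1 was at 0 in every library, and 0 of 6 tested markers were called between the groups. The part of adipocytes in the level of Slc25a25 was not tested. Slc25a23, the most abundant of the 3, had 17.8, 14.5 and 23.1 TPM in wild type and 23.1, 22.5 and 20.5 TPM in knockout, with overlap and no call (0.27, adjusted p 0.225). The share of Slc25a24 in the sum of the 3 genes was 8.75%, 7.56% and 5.23% in wild type and 14.1%, 15.4% and 14.5% in knockout, without overlap.

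Slc25a20, which exchanges acylcarnitine for carnitine and so admits fatty acids for oxidation, fell evenly. Wild-type levels were 107, 108 and 124 TPM (113 ± 9.31, n = 3) and knockout levels 69.0, 65.7 and 68.4 TPM (67.7 ± 1.76). The highest knockout value was far under the lowest wild-type value. The log2 fold change was -0.73 (SE 0.14, adjusted p 0.00202) and -1.15 after rescaling (adjusted p 0.000135; 0.000135 to 0.0158 over 16 alternatives). Relative to Slc25a4 in the same library it was 0.0599, 0.0557 and 0.0513 in wild type and 0.0481, 0.0395 and 0.0426 in knockout, also without overlap. The gene lies on chromosome 9, 108662088 to 108684641, on the plus strand.

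Of the 6 amino acid carriers 1 fell and 1 rose. Slc25a22, a glutamate carrier, had the largest decrease among the 38 and fell to 34.8% of wild type. The 3 wild-type libraries held 25.7, 27.9 and 24.5 TPM (26.0 ± 1.72, n = 3) and the knockout libraries 14.2, 6.55 and 6.33 TPM (9.04 ± 4.503). Knockout library 1 was the highest of its group and still lay under all wild-type libraries. The log2 fold change was -1.51 (SE 0.24, adjusted p 0.00069) and -1.91 after rescaling (adjusted p 0.000868; 1.07e-05 to 0.0149 over 16 alternatives). None of its 31-base windows occurred in another annotated gene.

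Slc25a12, the aspartate-glutamate carrier of the malate-aspartate shuttle in muscle, stood at 127, 133 and 124 TPM in wild type and 123, 115 and 105 TPM in knockout. The groups lay just apart, and the log2 fold change of -0.17 was not called (adjusted p 0.341), although the gene was called lower after rescaling. The ratio of Slc25a22 to Slc25a12 within a library was 0.202, 0.210 and 0.197 in wild type and 0.116, 0.0569 and 0.0604 in knockout, without overlap. Slc25a13, the liver counterpart of Slc25a12, was just outside the minimum with a mean of 0.769 TPM. Its values were 1.19, 1.04 and 0.925 TPM in wild type and 0.305, 0.601 and 0.553 TPM in knockout.

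Slc25a38, the glycine carrier that supports haem synthesis, rose from 7.35, 6.37 and 8.13 TPM to 10.8, 8.505 and 11.8 TPM, and the groups did not overlap. The change of 0.45 (SE 0.16, adjusted p 0.0428) was lost after rescaling (0.07, adjusted p 0.705; 0.0148 to 0.727 over 15 alternatives). It was also lost without wild-type library 1 or 2 (adjusted p 0.101 and 0.159) and without knockout library 1 or 3 (0.105 and 0.16). Slc25a44, a carrier of branched-chain amino acids, had means of 6.26 and 8.14 TPM, Slc25a15, the ornithine carrier, 6.17 and 5.63 TPM, and Slc25a29, a carrier of basic amino acids, 3.07 and 2.72 TPM in wild type and knockout. None of these 3 was called on the deposited scale, and Slc25a15 and Slc25a29 were called lower after rescaling.

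The di- and tricarboxylate carriers split by level. Slc25a11, the oxoglutarate-malate exchanger and the other carrier of the malate-aspartate shuttle, stood at 149.8, 137 and 173 TPM in wild type and 119, 124 and 111 TPM in knockout. The groups lay apart, with a log2 fold change of -0.37 that was not called (adjusted p 0.0642) and was called lower after rescaling. Slc25a1, which exports citrate for cytosolic acetyl-CoA, rose from 1.57, 1.40 and 0.864 TPM to 3.63, 2.16 and 3.98 TPM, without overlap. Its log2 fold change was 0.89 (SE 0.19, adjusted p 0.00421), and 0.60 after rescaling, just short of the threshold (adjusted p 0.0553; 0.000426 to 0.128 over 15 alternatives). Slc25a10, the dicarboxylate carrier, rose from 1.58, 1.07 and 1.35 TPM to 2.72, 1.95 and 2.58 TPM, again without overlap. Its change of 0.55 (SE 0.15, adjusted p 0.0134) was lost after rescaling (0.28, adjusted p 0.144; 0.0073 to 0.478 over 15 alternatives), and just lost without wild-type library 2, knockout library 1 or knockout library 3 (0.0586, 0.0551 and 0.0501).

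**Figure D3:**
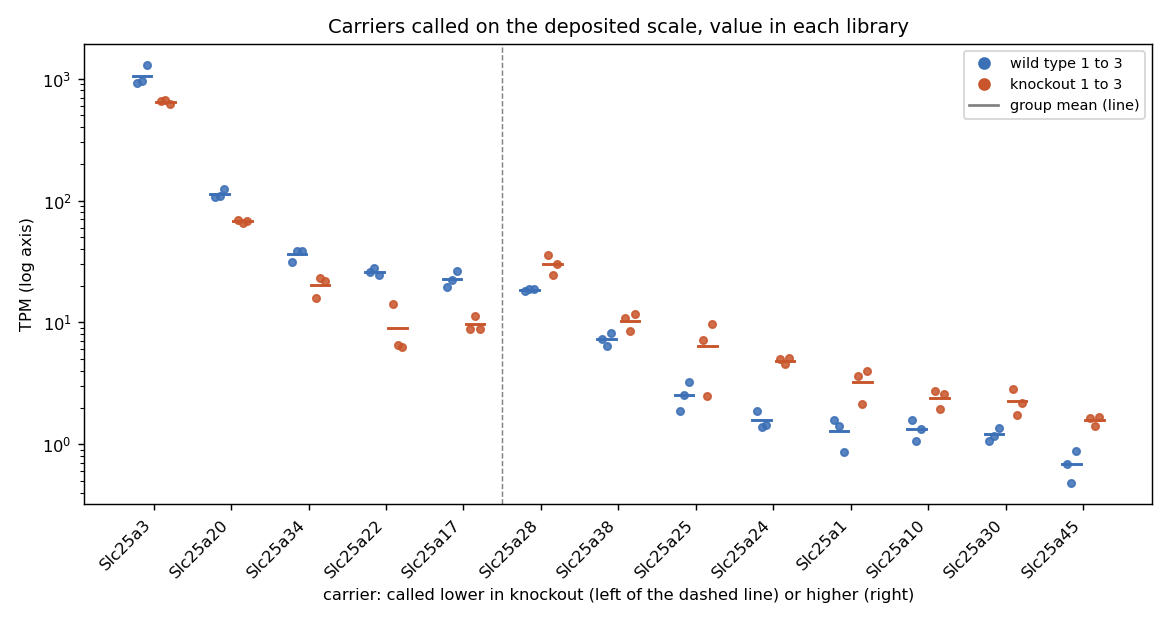
TPM of each of the 13 called carriers in the 6 libraries (log axis), with wild-type and knockout libraries as separate points. Slc25a25 is the called carrier whose groups overlap, because its knockout library 2 at 2.47 TPM lies between wild-type values of 1.86 and 3.27 TPM.

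Cofactor and nucleotide carriers numbered 9, of which 1 was called. Slc25a17, a peroxisomal member that carries coenzyme A and related adenine nucleotides and not a mitochondrial one, fell from 19.6, 22.4 and 26.7 TPM (22.9 ± 3.56, n = 3) to 8.88, 11.3 and 8.76 TPM (9.64 ± 1.42). The groups were well apart and knockout stood at 42.1% of wild type. The log2 fold change was -1.16 (SE 0.16, adjusted p 0.000267) and -1.56 after rescaling (adjusted p 0.000308; 1.17e-05 to 0.00483 over 16 alternatives).

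The mitochondrial members of that group had log2 fold changes between -0.37 and 0.38, none of them called. The pyrimidine nucleotide carrier Slc25a36 had 27.3, 26.2 and 29.7 TPM in wild type and 37.7, 26.9 and 21.3 TPM in knockout, a spread in knockout that took in the whole wild-type range. Its partner in substrate, Slc25a33, had 10.48, 11.1 and 13.7 TPM in wild type and 12.2, 13.5 and 13.2 TPM in knockout, with overlap. Slc25a51, the NAD carrier, had means of 15.9 and 21.2 TPM and the highest log2 fold change among the uncalled carriers, 0.38 (adjusted p 0.0745), with knockout above wild type in every library. Slc25a42, a coenzyme A carrier, had means of 10.99 and 8.29 TPM (-0.37, adjusted p 0.0692). Mean levels in wild type and knockout were 9.29 and 7.31 TPM for the S-adenosylmethionine carrier Slc25a26, 9.13 and 10.7 TPM for Slc25a16, and 2.86 and 3.62 TPM for the folate and FAD carrier Slc25a32. After rescaling Slc25a42 and Slc25a26, like Slc25a17, were called lower.

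Among glutathione and iron carriers the paralogous iron importers were both higher in each knockout library than in any wild-type library, as were 48.7% of all tested genes. After rescaling the groups overlapped for both. Slc25a28 rose from 17.99, 18.9 and 18.7 TPM (18.5 ± 0.486, n = 3) to 35.5, 24.7 and 29.9 TPM (30.04 ± 5.37). Knockout library 1 was the highest. Its change of 0.65 (SE 0.16, adjusted p 0.00745) was lost after rescaling (0.24, adjusted p 0.134; 0.00244 to 0.134 over 16 alternatives). Slc25a37, the erythroid-enriched paralogue, had 2.34, 2.58 and 2.57 TPM in wild type and 3.60, 3.37 and 3.28 TPM in knockout. Its change of 0.34 was not called (adjusted p 0.0563) and was 0.02 after rescaling (adjusted p 0.909). Haemoglobin and haem synthesis markers of erythroid cells ranged from 814 to 1427 TPM in wild type and 346 to 1759 TPM in knockout when summed, with 0 of 5 called; their part in these levels was not tested.

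The glutathione carriers Slc25a39 and Slc25a40 were not called on the deposited scale. Slc25a39 had 21.5, 20.0 and 25.7 TPM in wild type and 21.9, 17.5 and 17.9 TPM in knockout. Slc25a40 had 2.30, 2.07 and 2.48 TPM in wild type and 2.30, 2.10 and 1.88 TPM in knockout. Both pairs of groups overlapped, and both genes were called lower after rescaling.

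Members related to uncoupling proteins are Slc25a14, Slc25a27 and Slc25a30. Slc25a30 rose from 1.07, 1.17 and 1.37 TPM to 2.86, 1.74 and 2.18 TPM, without overlap. The change of 0.55 (SE 0.15, adjusted p 0.0151) was lost after rescaling (0.29, adjusted p 0.112; 0.0065 to 0.43 over 15 alternatives), and just lost without wild-type library 1 or knockout library 1 (0.0518 and 0.0669). Slc25a27 had means of 3.38 and 4.68 TPM (0.38, adjusted p 0.0524) and Slc25a14 means of 1.09 and 1.53 TPM (0.25, adjusted p 0.268).

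The carriers whose solutes are unknown or debated held a strong decrease. Slc25a34 fell from 31.1, 38.6 and 38.6 TPM (36.1 ± 4.31, n = 3) to 15.8, 22.9 and 21.7 TPM (20.1 ± 3.81), which was 55.8% of wild type. No knockout value reached the wild-type range. The log2 fold change was -0.82 (SE 0.17, adjusted p 0.00343) and -1.23 after rescaling (adjusted p 0.00224; 0.000857 to 0.0414 over 16 alternatives). Slc25a45 rose from 0.693, 0.479 and 0.890 TPM to 1.64, 1.43 and 1.66 TPM, at 0.62 (SE 0.14, adjusted p 0.00482) and 0.40 after rescaling (adjusted p 0.0353; 0.00379 to 0.186 over 11 alternatives). It was under 1 TPM in every wild-type library, so it passed the filter on low values through knockout alone. It was also the member nearest the inclusion minimum, with a mean of 1.13 TPM, and Slc25a14 was next with 1.31 TPM.

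The other orphan members were not called on the deposited scale. Slc25a46, an outer membrane protein linked to mitochondrial dynamics, had means of 21.1 and 17.6 TPM and was called lower after rescaling, as was Slc25a47, with means of 3.33 and 3.12 TPM. Slc25a35 had means of 2.10 and 2.24 TPM, and 27.7% of its 31-base windows were shared with other genes, nearly all with the overlapping gene Rangrf. Slc25a53 had means of 1.24 and 1.63 TPM and the largest wild-type coefficient of variation, 29.99%.

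The 9 carriers outside the minimum were all under 1 TPM on average: Slc25a13, Slc25a18, Slc25a43, Slc25a2, Slc25a31, Slc25a54, Slc25a21, Slc25a48 and Slc25a41. The testis isoform of the ADP/ATP exchanger, Slc25a31, was missing from the tables of 3 of the 6 libraries and set to 0 there, and its highest value was 0.112 TPM.

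Ratios inside a library do not depend on how libraries are scaled. Several of those given here set a carrier called lower against a carrier not called, in the same libraries. Their lack of overlap is therefore not separate support for those calls. Slc25a4 per Slc25a3 was 1.94, 2.03 and 1.86 in wild type and 2.19, 2.51 and 2.59 in knockout, without overlap, so the phosphate carrier was lower relative to the nucleotide exchanger. Per 1000 TPM of summed nuclear ATP synthase transcripts, Slc25a3 stood at 59.7, 53.9 and 59.0 TPM in wild type and 48.8, 44.4 and 40.7 TPM in knockout, without overlap. Slc25a4 measured the same way was 116, 109.6 and 109.9 TPM in wild type and 107, 111 and 105 TPM in knockout, and overlapped. Slc25a20 was 6.93, 6.11 and 5.63 TPM in wild type and 5.14, 4.40 and 4.49 TPM in knockout, apart.

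**Figure D4:**
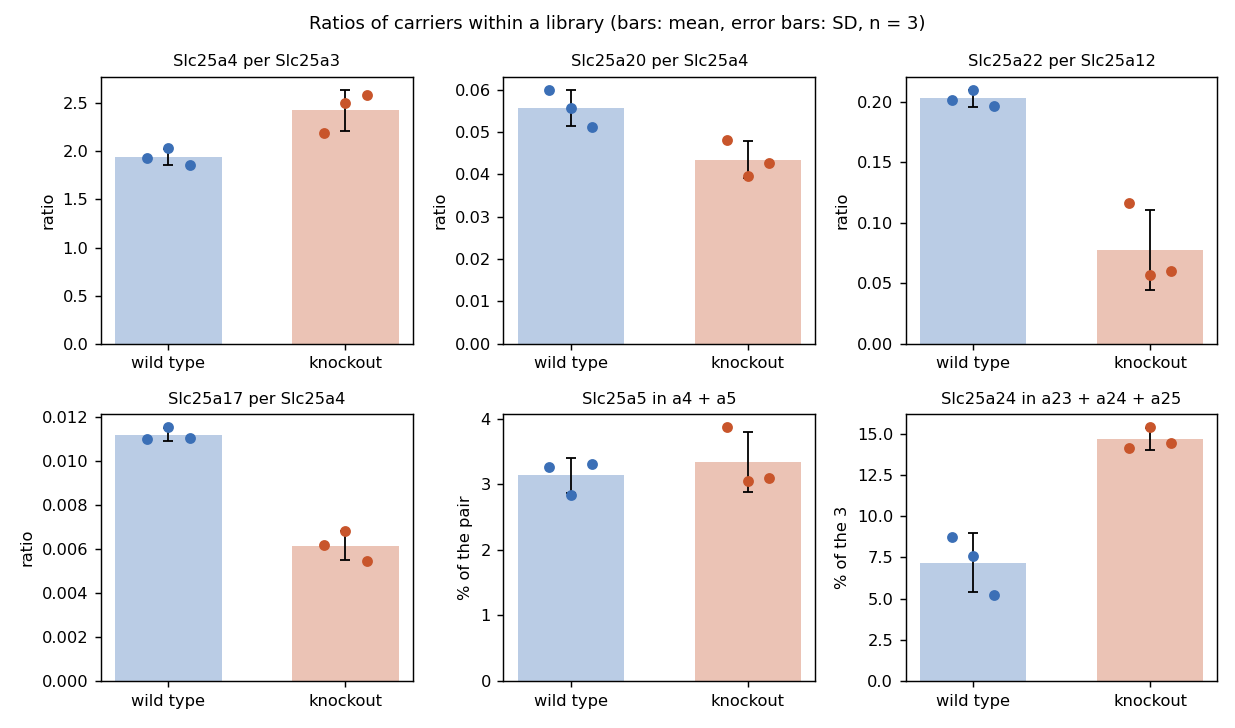
Within-library ratios of carrier levels, with 1 point per library and wild type and knockout side by side. The ratio of Slc25a22 to Slc25a12 is 0.197 to 0.210 in wild type and 0.0569 to 0.116 in knockout, while the share of Slc25a5 in the pair Slc25a4 and Slc25a5 overlaps between the groups; bars are means and error bars SD.

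Proximal promoters were taken from RefSeq (GRCm38.p6) as the 250 bases before each RefSeq start. They were found for 29 of 38 members, in 38 entries. In 26 of these entries the bases after the start also occurred in a GENCODE protein-coding transcript of the gene. Some windows, such as that of Slc25a20 (chr9:108661886-108662135), reach into the GENCODE gene, which starts at 108662088. The letters AAGGTCA, an extended site of oestrogen-related and related nuclear receptors, occurred on either strand in 1 of 38 entries (2.63%) and in 1340 of 32851 entries of all genes (4.08%). The letters TGACGTCA, the cAMP response element, occurred in 2 of 38 (5.26%) and 508 of 32851 (1.55%), and the NRF1 core GCGCATGC in 0 of 38 and 741 of 32851 (2.26%). Motifs were searched separately. The entry with the first motif belonged to Slc25a34, which fell, and those with the second to Slc25a25, which was uneven among knockout libraries, and to Slc25a36. The first 2 of these genes are shown because their levels differed most among those with a match; capitals mark the match, which for Slc25a34 reads on the other strand, 119 bases before the start, and for Slc25a25 lies 150 bases before the start.
Slc25a34, chr4:141623835-141624084, minus strand: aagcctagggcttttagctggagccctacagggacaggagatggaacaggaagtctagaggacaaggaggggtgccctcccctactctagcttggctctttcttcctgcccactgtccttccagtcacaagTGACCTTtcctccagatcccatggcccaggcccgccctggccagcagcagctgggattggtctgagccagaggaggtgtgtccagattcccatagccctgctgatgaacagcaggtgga
Slc25a25, chr2:32424067-32424316, minus strand: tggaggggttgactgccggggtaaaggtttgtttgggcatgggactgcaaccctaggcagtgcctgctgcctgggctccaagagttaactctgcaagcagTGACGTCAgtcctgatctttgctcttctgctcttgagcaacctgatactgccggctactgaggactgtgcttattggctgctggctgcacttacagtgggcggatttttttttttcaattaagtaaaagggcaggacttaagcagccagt
The Slc25a25 window precedes an internal start and lies within the gene's annotated span (chromosome 2, 32414487 to 32451445). The other Slc25a25 entries, chr2:32431152-32431401 and chr2:32451471-32451720, held no match. A match describes the letters only, and binding was not measured.

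Genes that work with the carriers were read from 6 lists of partners, with 53 tested genes. Of these 5 rose and 11 fell on the deposited scale, and 2 were called higher and 34 lower after rescaling. The shares of all tested genes were those given for the carriers, 36.3% higher and 2.92% lower as deposited and 13.4% and 15.4% rescaled. Mitochondrial proteins of the carrier fold with other symbols included the sharpest decrease. Ucp3, an uncoupling protein of skeletal muscle, fell from 33.2, 58.2 and 39.4 TPM to 21.7, 8.05 and 3.09 TPM (-2.20, adjusted p 0.00356), without overlap. Ucp2 rose from a mean of 15.0 to 20.8 TPM (0.44, adjusted p 0.0319), a call lost after rescaling (0.04, adjusted p 0.783; 0.0248 to 0.783 over 16 alternatives) and, in turn, without wild-type library 1 or 2 or knockout library 1 or 3 (0.151, 0.0887, 0.0871 and 0.0888). Mtch1 and Mtch2 were not called on the deposited scale, and Mtch2 was called lower after rescaling.

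For the transport of pyruvate and calcium the directions differed. Mpc2, a subunit of the mitochondrial pyruvate carrier, fell from 326, 439.9 and 479.8 TPM to 203, 281 and 201 TPM (-0.86, adjusted p 0.00508). Its partner subunit Mpc1 had 491, 568 and 725 TPM in wild type and 533, 437 and 449 TPM in knockout, with overlap, and was called lower after rescaling. Among the 11 other inner membrane transporters 4 rose, a share near the 36.3% of all tested genes, namely the sideroflexins Sfxn1 and Sfxn3 and the calcium uniporter genes Mcu and Micu2. Sfxn1, a serine transporter, rose from a mean of 0.821 to 3.06 TPM and Sfxn3 from 3.06 to 10.9 TPM, and these were the 2 genes of the list called higher after rescaling. Sfxn1, below 1 TPM in all wild-type libraries, passed the filter on low values through knockout alone. Mcu rose from a mean of 17.2 to 27.6 TPM and Micu2 from 40.0 to 57.1 TPM, and both calls were lost after rescaling (0.22 and 0.07). The call of Mcu was also lost without wild-type library 1 or 2 or knockout library 1 (adjusted p 0.0596, 0.0646 and 0.0688), and that of Micu2 without wild-type library 1 or 2 or knockout library 1 or 3 (0.116, 0.172, 0.159 and 0.0625).

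Called genes of the import machinery and the shuttle enzymes were all lower, on both scales. Timm10, a chaperone of the intermembrane space that escorts carriers to the inner membrane, fell from a mean of 67.8 to 39.3 TPM (-0.75, adjusted p 0.00564), and Timm8a1, of the same chaperone family, from 21.9 to 12.6 TPM (-0.75, adjusted p 0.00452). The other 11 of 13 import genes were not called on the deposited scale, and after rescaling 8 of the 13 were called lower. Of the malate-aspartate shuttle enzymes Mdh1 fell from 724, 669 and 848 TPM to 372, 487 and 431 TPM (-0.80, adjusted p 0.00319) and Got1 from a mean of 261 to 179.8 TPM (-0.53, adjusted p 0.0193), both cytosolic. The call of Got1 was lost without wild-type library 2 or knockout library 3 (adjusted p 0.0841 and 0.105). The mitochondrial enzymes Mdh2 and Got2 were not called on the deposited scale, but after rescaling all 4 enzymes were called lower. None of the 3 porins of the outer membrane was called on the deposited scale, and all 3 were called lower after rescaling. The ATP synthase list of 18 genes included Atpif1 (0.39, not called), which was left out of the summed transcripts used for the ratios. Of the 18 genes, 5 fell and none rose, with a median of -0.28, and 14 were called lower after rescaling. Those that fell were Atp5a1 (-0.52), Atp5g3 (-0.67), Atp5j (-0.48), Atp5md (-0.48) and Atp5pb (-0.43), and each lost its call on the deposited scale in 3 or more of the 6 fits that left out a library.

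Markers of other cell types were read beside the carriers, against 36.3% of all tested genes called higher as deposited and 13.4% rescaled. Of 10 macrophage markers 9 were tested and rose on both scales, although Adgre1 and Cd14, below 1 TPM in all wild-type libraries, passed the filter through knockout alone; the summed list went from 33.5 to 41.2 TPM in wild type to 173 to 215 TPM in knockout, with Fcgr1 at 0 in wild-type library 2. All 8 markers of fibroblasts and fibro-adipogenic progenitors rose, 7 of them also after rescaling, with sums of 291 to 315 and 873 to 922 TPM. Of 6 endothelial markers 4 rose and 1 fell, and 3 were called higher and 2 lower after rescaling, with sums of 87.2 to 95.1 and 157 to 180.0 TPM. Of 6 smooth muscle and pericyte markers 2 rose, a share near that of all tested genes, and 1 was called higher after rescaling, with sums of 165 to 173 and 196 to 208 TPM. None of the 6 tested adipocyte markers of 8 was called, with sums of 31.8 to 62.9 and 28.7 to 110.0 TPM. Of 5 proliferation genes only Pcna was tested and it was not called; the sums were 18.4 to 24.8 and 22.9 to 25.7 TPM. The part of these cells in the levels of Slc25a24, Slc25a1 and the other low carriers that rose was not tested. The 12 muscle fibre markers were present in every library. Their sums were 40294 to 44737 TPM in wild type and 43708 to 52404 TPM in knockout, ranges that overlapped. Des and Myh4 were called higher and Ckmt2, a mitochondrial creatine kinase, lower on both scales. Mb and Tnnt1 were called lower after rescaling alone. Among the myosin heavy chains, Myh7 stood at 2175, 1701.5 and 2703 TPM in wild type and 3186, 2196 and 3291 TPM in knockout. Myh2 stood at 1610, 1209 and 1444 TPM and at 1838.5, 1299 and 1203 TPM. Myh1 stood at 546, 1369 and 548 TPM and at 1012, 1201 and 1622.5 TPM. None of them was called on either scale, and which muscle this profile belongs to was not tested. Myh4 was uneven in wild type, at 6.43, 193.5 and 4.21 TPM, against 238, 580 and 346 TPM in knockout. After rescaling its groups overlapped and its limma adjusted p was 0.0498, with 0.0671 as the highest over 16 alternatives. The part of muscle fibres in the levels of the carriers was not tested.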

How the data were processed

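PolyA RNA of mouse muscle was sequenced in 12 samples, of which 6 were distinct. The authors deposited a table of gene levels per sample in TPM; the unit was read from the values, which summed to 843194 to 872482 TPM per library. STAR 2.5.3a and kallisto 0.43.0, with GRCm38 and mm10 as genome builds, are listed per the submitters' processing notes, with no word on which tool made the tables. Genes missing from a table were set to 0. The test was limma 3.58.1 in R 4.3.3 with a mean-level trend, run on log2 values after adding 1 TPM, for every gene that reached 1 TPM in 3 libraries or more, with Benjamini-Hochberg adjustment over all of them; the 6 libraries left 4 residual degrees of freedom. Rescaling used a trimmed mean of log ratios, trimming 30% by ratio and 5% by level on each side. Alternatives changed the scale, the filter, the pseudocount, the trend, the replicate block and the libraries used. On simulated data of 10874 genes with 100 changed by a log2 fold change of 1 and 100 by 2, the test recovered 76% and 96%, and 6 unchanged genes were called. The changed genes were drawn from those with a mean log2 value above 2, so recovery for weaker carriers was not simulated. The simulation held no shift common to all genes. Transcript windows, gene positions and coding sequences came from GENCODE M21 and promoters from RefSeq. Members are named except 1 that is not reported here, which stays in the counts; values in each library are given for called members, the 10 with the highest mean and those sharing a substrate, and from partner lists the called genes, at most 6 by smallest adjusted p. The members and lists were chosen with earlier results of these data known, and markers of fibres and adipocytes were named after their values were seen. Figures used Python 3.11.15 and matplotlib 3.10.9.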

Additional observations from a re-analysis of the deposited data

How the results depend on the processing

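The 5 decreases (Slc25a3, Slc25a20, Slc25a34, Slc25a22 and Slc25a17) were called lower in all 16 alternatives, and the count of carriers called lower stayed at 5 in every fit that left out a library. The count called higher depended on the scale and the libraries. Against 8 higher and 5 lower as deposited, quantile normalization gave 1 and 19, trimmed-mean rescaling 2 and 18, and a scale over nuclear genes alone 6 and 13. A 10 TPM filter, which tested 19 carriers, gave 1 higher. Leaving out a library in turn gave 3 to 10 higher, and leaving out wild-type library 2 with knockout library 1 gave 2. For partner genes, 5 higher and 11 lower as deposited became 2 and 29 with quantiles, 2 and 34 rescaled, 3 and 25 on the nuclear scale, 7 lower with no filter, 2 to 7 higher and 5 to 11 lower leaving out a library in turn, and 1 and 4 with that pair left out. A minimum mean of 5 TPM would have included 23 carriers and of 0.5 TPM 39. The cause of these moves was not tested. Where a group kept 2 libraries, the pooled spread was used.

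Carriers that changed sign were not called on the deposited scale. With quantile normalization these were Slc25a36 (-0.29), Slc25a53 (-0.22), Slc25a35 (-0.36), Slc25a37 (-0.094), Slc25a32 (-0.17), Slc25a27 (-0.056), Slc25a16 (-0.16), Slc25a44 (-0.067), Slc25a33 (-0.21), Slc25a23 (-0.060) and Slc25a14 (-0.19), of which Slc25a35 was then called (adjusted p 0.0457). Rescaling turned Slc25a44 (-0.042), Slc25a23 (-0.14), Slc25a51 (-0.026), Slc25a32 (-0.063), Slc25a33 (-0.26), Slc25a35 (-0.23), Slc25a36 (-0.40), Slc25a53 (-0.046) and Slc25a16 (-0.18). The nuclear scale turned Slc25a36 (-0.18), Slc25a35 (-0.077) and Slc25a33 (-0.047). Leaving out a library in turn gave -0.20 to 0.20 for Slc25a36 (negative without knockout library 1 or wild-type library 2), -0.025 to 0.35 for Slc25a53 (negative without knockout library 1) and -0.15 to 0.049 for Slc25a47 (positive without wild-type library 3). With the pair left out together the values were -0.16 for Slc25a53 and -0.24 for Slc25a36.

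Same-numbered wild-type and knockout libraries gave r of 0.0283, -0.00808 and 0.0369 for their deviations across genes, which are not independent replicates. Libraries of different numbers gave -0.135 to 0.0984. No shared deviation by number was seen, but such values cannot exclude a weak pairing. The samples were treated as unpaired. With the replicate number as a block, 8 carriers were called higher and 5 lower, and 5 and 10 partner genes. Depth is unknown, so the precision of the carriers near 1 TPM could not be given.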
